A study of Mus musculus with 7 samples.

Results

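Ear epidermis of mice that carry the Koa allele was compared with ear epidermis of wild-type (WT) mice by RNA sequencing of flow-sorted cells. The Koa library came from mice labelled Wt/Koa, with 1 copy of the allele, and the WT library from mice labelled Wt/Wt. Both were of the strain label CD1/C3H and at postnatal day 50, and each group had 1 library, so no difference below has a replicate check and no test was made. The labels do not say how many animals were pooled or whether they were littermates. Any other difference between the animals, inherited ones included, cannot be told apart from the allele. Of the 7 libraries in the table these are 2, and of its 22552 gene symbols 12065 stood at 1 FPKM or more in at least 1 of them, which is the set described here. The values are FPKM as the authors computed it, that is, mapped fragments adjusted for library size and for the length of the transcript. Differences are Koa minus WT on the log2(FPKM + 1) scale, and a gene was counted as higher or lower in Koa where it differed by at least 1 on that scale.

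Koa is a dominant mouse allele caused by an inversion on distal chromosome 15, with an end near the Hoxc cluster, and its carriers have hairy ears. A growing hair is built in the lower follicle. Matrix cells divide and their daughters become the shaft, made of hair keratins and keratin-associated proteins, the inner root sheath, which moulds the shaft and hardens with trichohyalin, and the companion layer, which lets the sheath slide past the outer root sheath. Each layer has its own keratins, so their transcripts mark follicles that are making a hair, whereas interfollicular epidermis makes Krt5 and Krt14 in its basal cells and Krt1 and Krt10 above them.

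Markers of keratinocytes stood high in both libraries, as the epidermal label requires. Krt14 measured 5417.8 FPKM in Koa and 5518.4 in WT, Krt5 at 7883.1 and 5801.1 FPKM, and Krt10 at 2924.1 and 2494.6 FPKM. Several markers of other skin cells stood under 1 FPKM in both: the fibroblast receptor Pdgfra stood at 0.231 and 0.210 FPKM, the endothelial adhesion gene Pecam1 at 0.519 and 0.487 FPKM, the T cell receptor component Cd3e at 0.229 and 0.121 FPKM, and the mast cell chymase Cma1 at 0.0324 and 0.0568 FPKM. Other dermal and immune transcripts were present at low levels, with the collagens Col6a1 at 15.7 and 8.53 FPKM and Col1a2 at 7.53 and 6.86 FPKM, the proteoglycan Dcn at 12.4 and 15.4 FPKM, and Cd74, the class II invariant chain, at 7.28 and 3.85 FPKM. Of 13 fibroblast genes kept, 1 was higher in Koa (Fn1, fibronectin, 9.13 against 3.71 FPKM), and the summed level of that list was 189 and 145 FPKM. The depth recovered from the values was 35.45 mega fragments (M) in Koa and 40.41 M in WT. Ratios below carry 95% intervals from fragment numbers estimated with these depths. They are approximate and cover counting error only, and no variation between animals or preparations.

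Of the 12065 genes, 259 (2.15%) were higher in Koa and 103 (0.854%) lower. Short RNAs made up 213 of these genes, 71 of the higher calls and 43 of the lower, so counts from here on leave them out. Among the other 11852 genes, 188 (1.59%) were higher and 60 (0.506%) lower, and the median difference was -0.01. The count of each gene list below is to be set beside these shares. The central 90% of differences lay between -0.52 and 0.61. Only 29 genes differed by 2 or more, 26 of them higher in Koa, and 12 by 3 or more, 10 of them higher. The higher genes had a median of 6.95 FPKM in Koa and 1.43 FPKM in WT, and 78 of the 188 stood under 1 FPKM in WT. Genes whose level in WT ear dermis was at least 10 times that in either ear epidermis, a limit set with the data in view, made up 18 of the 188 higher genes (9.57%), 3 of the 60 lower (5%) and 1.63% of all. Among them were the matrix proteins Bgn (8.38 against 2.38 FPKM) and Mgp (5.43 against 1.94 FPKM), Angptl7 (7.67 against 2.28 FPKM), Myoc (2.17 against 0.343 FPKM), Ccdc80 (2.60 against 0.718 FPKM) and the smooth muscle actin Acta2 (1.65 against 0.236 FPKM). In WT ear dermis these ranged from 63.9 FPKM for Acta2 to 1310.5 FPKM for Angptl7, and the part of dermal RNA in their differences was not tested. When the median of genes of like transcript length was subtracted, a choice made with the data in view, 209 genes were higher and 35 lower. At the edge of the size rule, Hpgd (12.5 against 5.72 FPKM) was counted as higher and Plat (11.9 against 5.45 FPKM) was not, while Tmem45b (6.69 against 14.5 FPKM) was counted as lower and Igfbp4 (50.5 against 102 FPKM) was not.

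**Figure D1:**
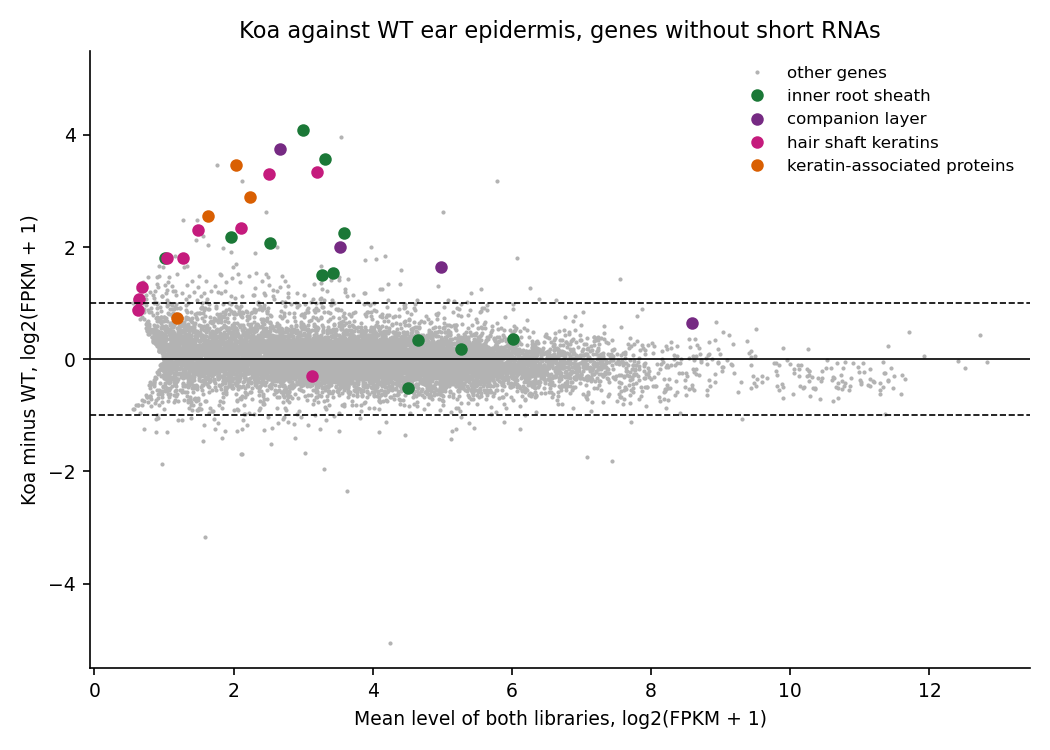
Difference of each gene between Koa and WT ear epidermis (vertical, log2(FPKM + 1)) against its mean level in both libraries (horizontal, same scale), with short RNAs left out and the size rule of 1 as dashed lines. Of the 30 coloured genes of the growing hair, 22 lie above the upper line and 0 below the lower one.

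Lists of the layers of the growing hair had the highest medians of the 58 lists examined, from 1.67 to 2.73. Of the 85 genes in the lists of the inner root sheath, the companion layer, the shaft keratins and the keratin-associated proteins, 30 were kept, 22 were higher in Koa and 0 lower, against 1.59% higher and 0.506% lower of all genes. The 22 made up 11.7% of the 188 higher genes, 13 of the 26 that were higher by at least 2, and 6 of the 10 that were higher by at least 3. Their median level was 12.3 FPKM in Koa, 0.811 FPKM in WT and 4.94 FPKM in WT dorsal epidermis, and 14 of them stood under 1 FPKM in WT ear. The Koa and WT ear values chose these genes, and a gene kept through Koa alone can only lie above 0. The counts and medians of these lists are therefore partly set by the filter. This holds most for the keratin-associated proteins, whose kept members all stood under 1 FPKM in WT. In bulk RNA, more cells of a type and more RNA per cell cannot be told apart.

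In the list of the inner root sheath, 8 of 12 genes kept were higher in Koa (median 1.67). Krt71, the type II keratin of all layers of this sheath (chr15:101733949-101743097), measured 31.9 FPKM in Koa and 0.930 in WT, a ratio of 34.3 (27.4 to 44.1). Krt25, its type I partner, measured 33.3 against 1.88 FPKM, for a ratio of 17.7 (14.9 to 21.2). The type I keratins Krt28 (10.8 against 1.79 FPKM) and Krt27 (15.2 against 4.71 FPKM) and the type II keratin Krt73 (7.26 against 0.825 FPKM) were also higher, so keratins of both types were higher. Tchh, trichohyalin, which cross-links the sheath's keratin filaments, stood at 25.2 and 4.46 FPKM. Padi3, the deiminase that modifies trichohyalin, had a ratio of 35.9 (18.8 to 73.7) at a low level, 2.79 against 0.0778 FPKM. S100a3, a calcium-binding protein of the hair cuticle that this list also counts, stood at 17.3 and 5.36 FPKM. The remaining 4 genes of the list are also used outside the sheath and were within the size rule: the transglutaminase Tgm3 (39.9 against 35.1 FPKM), the transcription factors Gata3 (72.4 against 56.1 FPKM) and Cux1 (27.5 against 21.3 FPKM), and Crct1 (18 against 26.3 FPKM).

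Of the 22 higher genes, 14 had a promoter window in the RefSeq table for GRCm38.p6, from 250 bases before to 50 after a start, 1 window per gene. For S100a3 and Krt36 this window lies inside the annotated gene and not at its outer end. Neither of these windows holds TATAAA or TAATTA, and both count among the 14. The 8 genes without a window were Krt16, Krt6a, Krt35, Krt85, Krt83, Krt33a, Krt86 and Krtap7-1. The TATA box letters TATAAA (or TTTATA on the other strand) stood in 9 of the 14 windows (64.3%), and in 14.2% of 27025 windows of all genes in the table. Among the 9, Krt84 holds only TTTATA, 206 bases before its start. Most of the 14 are keratin genes, and no share was computed for other keratin promoters. The homeodomain core TAATTA, which reads the same on both strands, stood in 4 of 14 (28.6%) against 5.31% of all, and these 4 are keratins of the inner root sheath that hold TATAAA as well. The forms CTTTGAT (or ATCAAAG), read by Lef1 and its relatives, and CAATAAA (or TTTATTG) stood in 0 and 1 of the 14 against 3.72% and 4.84% of all, the 1 being Tchh. These are matches of letters, not measured binding sites. The 4 windows with both TAATTA and TATAAA are shown 5′ to 3′ on the gene's strand, with those letters in capitals, because they belong to Krt71, Krt73, Krt25 and Krt28, the sheath keratins described above. In Krt73, Krt25 and Krt28 TATAAA begins 30 bases before the start and in Krt71 40 bases before it, and no marked letters overlap.
Krt71, chr15:101743048-101743347, minus strand: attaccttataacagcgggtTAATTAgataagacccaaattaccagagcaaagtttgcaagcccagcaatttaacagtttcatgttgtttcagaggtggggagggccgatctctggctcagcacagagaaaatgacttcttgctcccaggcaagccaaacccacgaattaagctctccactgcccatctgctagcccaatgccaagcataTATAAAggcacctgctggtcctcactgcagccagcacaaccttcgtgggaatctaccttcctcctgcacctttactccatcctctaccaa
Krt73, chr15:101802311-101802610, minus strand: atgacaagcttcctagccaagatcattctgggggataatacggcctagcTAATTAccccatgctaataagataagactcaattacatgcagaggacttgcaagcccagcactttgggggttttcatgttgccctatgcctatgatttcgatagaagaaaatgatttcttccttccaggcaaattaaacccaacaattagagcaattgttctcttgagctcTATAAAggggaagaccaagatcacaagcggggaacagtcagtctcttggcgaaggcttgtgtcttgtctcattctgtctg
Krt25, chr11:99322902-99323201, minus strand: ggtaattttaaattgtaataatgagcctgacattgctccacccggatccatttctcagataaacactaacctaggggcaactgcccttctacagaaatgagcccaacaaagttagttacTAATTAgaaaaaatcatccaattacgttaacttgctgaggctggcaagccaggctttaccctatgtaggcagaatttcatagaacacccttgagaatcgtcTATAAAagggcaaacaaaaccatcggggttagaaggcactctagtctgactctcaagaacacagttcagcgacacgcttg
Krt28, chr11:99374854-99375153, minus strand: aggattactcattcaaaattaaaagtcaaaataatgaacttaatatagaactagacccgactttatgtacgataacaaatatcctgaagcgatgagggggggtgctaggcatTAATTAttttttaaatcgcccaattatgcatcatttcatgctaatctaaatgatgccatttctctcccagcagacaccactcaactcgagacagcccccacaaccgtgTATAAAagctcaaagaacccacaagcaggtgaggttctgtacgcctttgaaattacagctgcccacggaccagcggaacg

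In the companion layer, 3 of 4 genes were higher (median 1.82). Krt75, its defining keratin, measured 22.2 FPKM in Koa and 0.743 in WT, a ratio of 29.9 (24.3 to 37.2). Krt6a (55 against 16.9 FPKM) and Krt16 (22.1 against 4.79 FPKM) are also keratins of wounded and stressed epidermis. Krt17, made through much of the outer root sheath, was within the rule at 479 and 306 FPKM. In WT dorsal epidermis these genes stood at 11.9 FPKM for Krt75, 55.8 FPKM for Krt6a, 136 FPKM for Krt16 and 1987.0 FPKM for Krt17. Krt16 and Krt17 were thus above Koa ear, and Krt6a at about its level.

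Among the hair shaft keratins, 8 of 10 kept were higher (median 1.80). Krt35, a keratin of the matrix and early cortex, measured 28.2 against 1.91 FPKM, for a ratio of 14.8 (12.6 to 17.3), and Krt85, its type II counterpart, at 16.9 and 0.798 FPKM. Krt31, Krt33a, Krt83 and Krt86, keratins of the shaft cortex, had Koa levels of 8.69, 3.52, 5.20 and 1.27 FPKM, and WT levels of 0.917, 0.302, 0.259 and 0.0705 FPKM. Krt36 stood at 2.84 against 0.102 FPKM. The level of Krt84 was low (1.51 against 0.0314 FPKM), the WT value resting on about 3 fragments, which leaves the ratio of 48.3 with bounds of 16.1 and 237. Not every shaft keratin followed. Krt33b stood at 1.09 and 0.144 FPKM, just within the rule at 0.87, and Krt32, a cuticle keratin, at 6.88 FPKM in Koa and 8.64 in WT, with 24.3 FPKM in dorsal epidermis.

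The keratin-associated proteins form the matrix between the shaft's keratin filaments and are made late. Of 51 genes in the table, 32 were listed at 0 in Koa and 40 in WT, and 4 reached 1 FPKM. Krtap7-1 measured 12.7 against 0.237 FPKM, for a ratio of 53.6 (20.6 to 199). Krtap8-1 stood at 11.9 and 0.726 FPKM, and Krtap11-1 at 6.53 and 0.277 FPKM. These 3 lie on chromosome 16, and WT dorsal epidermis held them near the level of WT ear (0.227, 0.674 and 0.628 FPKM). Krtap17-1, on chromosome 11 among the keratin genes, stood at 1.93 and 0.755 FPKM, within the rule, and at 2.95 FPKM in dorsal epidermis.

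Of the 22 higher hair-layer genes, 20 stood above the back in Koa ear, and 19 stood below the back in WT ear. How far the back lay from WT ear varied by gene. For Tchh the back was close to WT ear, with 25.2 FPKM in Koa ear, 4.46 FPKM in WT ear and 4.76 FPKM on the back. Krt71 (31.9, 0.930 and 7.55 FPKM) and Krt35 (28.2, 1.91 and 9.23 FPKM) placed the back between the ears, and the Krtap genes of chromosome 16 placed it near WT ear. The 2 ears are both set against the WT dorsal library, and the genes were chosen by their ear values, so these levels are a description.

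**Figure D2:**
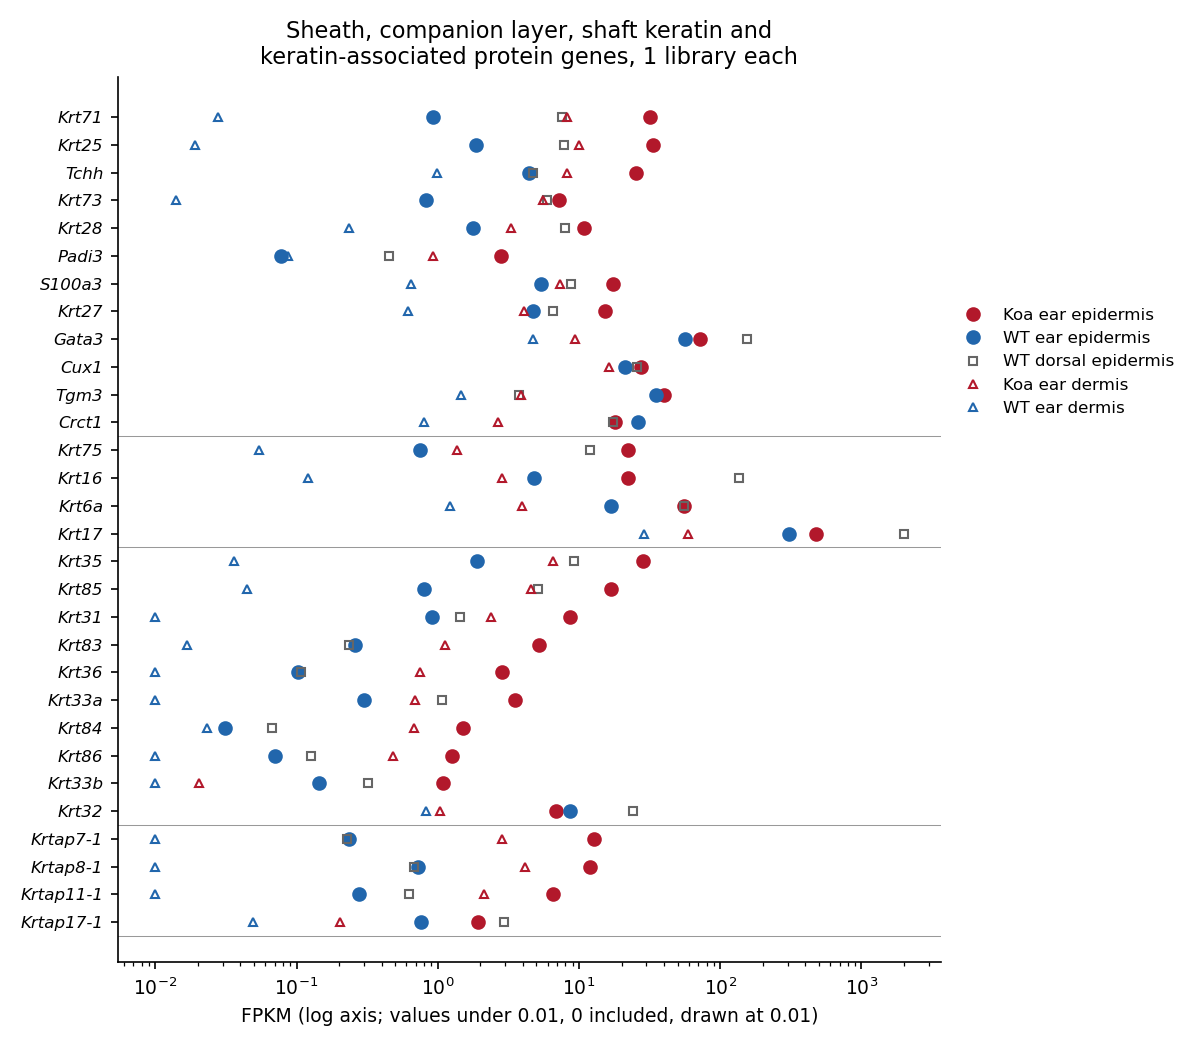
FPKM (log axis) of the 30 kept genes of the inner root sheath, companion layer, shaft keratins and keratin-associated proteins, from top to bottom, in 5 libraries, 1 point per library. For Krt71 the Koa ear epidermis lies at 31.9 FPKM and the WT ear epidermis at 0.930 FPKM, with the back between them at 7.55 FPKM.

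The same genes had higher values in Koa ear dermis, which was measured in separate libraries, though the labels do not say whether from other animals. All 22 lay above 0 there, and 17 of the 22 were higher by the rule, where 1.34% of 13487 genes were. The other 5 stood under 1 FPKM in both dermal libraries, and 16 of the 17 reached 1 FPKM in Koa alone. Krt71 measured 8.25 FPKM in Koa and 0.0279 in WT ear dermis, Krt75 at 1.36 and 0.0538 FPKM, and Krtap8-1, listed at 0 in WT, at 4.12 FPKM in Koa. Keratinocyte transcripts differed between the dermal libraries as well, with Krt5 at 787 FPKM in Koa and 267 in WT and Krt14 at 532 and 228 FPKM, and their part in this difference was not tested. Over all 188 genes higher in epidermis, 156 were kept in dermis and 42 were higher there too. Those 42 are 22.3% of the epidermal list and 23.2% of the 181 genes higher in dermis. Of the 60 lower genes, 51 were kept in dermis and 16 were lower there, where 0.586% of genes were lower. They are 26.7% of the epidermal and 20.3% of the 79 dermal genes.

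Transcription factors of the hair matrix and of shaft differentiation differed far less than the structural genes. Of 21 kept, 1 was higher, Sp6, a zinc finger factor of skin appendages (1.91 against 0.453 FPKM), and the median was 0.35. Hoxc13, which drives shaft keratins and whose gene lies at the end of the Hoxc cluster (10.3 against 6.52 FPKM), and Foxn1, the factor missing in nude mice (3.66 against 1.72 FPKM), were within the rule. So were Lef1, the Wnt-responsive factor of shaft precursors (1.99 against 0.824 FPKM), Dlx3 (13 against 8.29 FPKM) and Hr (121 against 85.2 FPKM). Trps1, a zinc finger factor, stood at 3.16 and 3.34 FPKM. Foxq1, which is needed for a normal hair medulla, measured 19.1 FPKM in Koa and 26 in WT, and Foxi3 at 1.18 and 2.00 FPKM.

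Of 24 other proteins of the shaft and its sheaths, 6 were higher and 0 lower (median 0.24). Slc7a8, an amino acid transporter, measured 12.1 against 0.446 FPKM, for a ratio of 27.2 (21.4 to 35). Unlike the keratins it was not higher in Koa dermis (6.67 against 8.94 FPKM). Dsg4, the desmosomal cadherin of the shaft, measured 2.50 against 0.113 FPKM and its partner class member Dsc2 at 6.07 and 1.46 FPKM, while the cadherins of the epidermis, Dsg1a (196 against 130 FPKM), Dsg3 (106 against 87.2 FPKM) and Dsc3 (406 against 348 FPKM), were within the rule. Across the desmosome list, 2 of 15 were higher, those same hair members, and the median was 0.24. Fgf5, whose loss gives long-haired mice and which ends hair growth, measured 1.18 FPKM in Koa and 0.0323 in WT, the latter about 3 fragments, which puts the bounds of the ratio of 36.5 at 12.1 and 180.

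Of 33 genes of the bulge and hair germ, 3 were higher (9.09%, against 1.59% of all genes) and 24 lay above 0, with a median of 0.16. The 3 were Lgr5, a receptor for R-spondins on cycling follicle stem cells (13.2 against 5.78 FPKM, with 15 FPKM on the back), the Wnt receptor Fzd2 (11.4 against 5.06 FPKM) and the bulge surface protein Cd34 (21.9 against 10.4 FPKM), all close to the rule. Krt15, the keratin of the bulge and of basal cells, stood at 3945.6 and 2819.1 FPKM. None of the 14 kept genes of the upper follicle and junctional zone passed the rule (median 0.11). Of 12 Wnt ligands and R-spondins 1 was higher (median 0.15), Rspo3 (1.67 against 0.203 FPKM), a secreted activator of Wnt signalling, while Wnt3 stood at 11.5 and 5.66 FPKM, within the rule at 0.91. Axin2, a general target of Wnt signalling, stood at 24.2 and 19.5 FPKM.

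**Figure D3:**
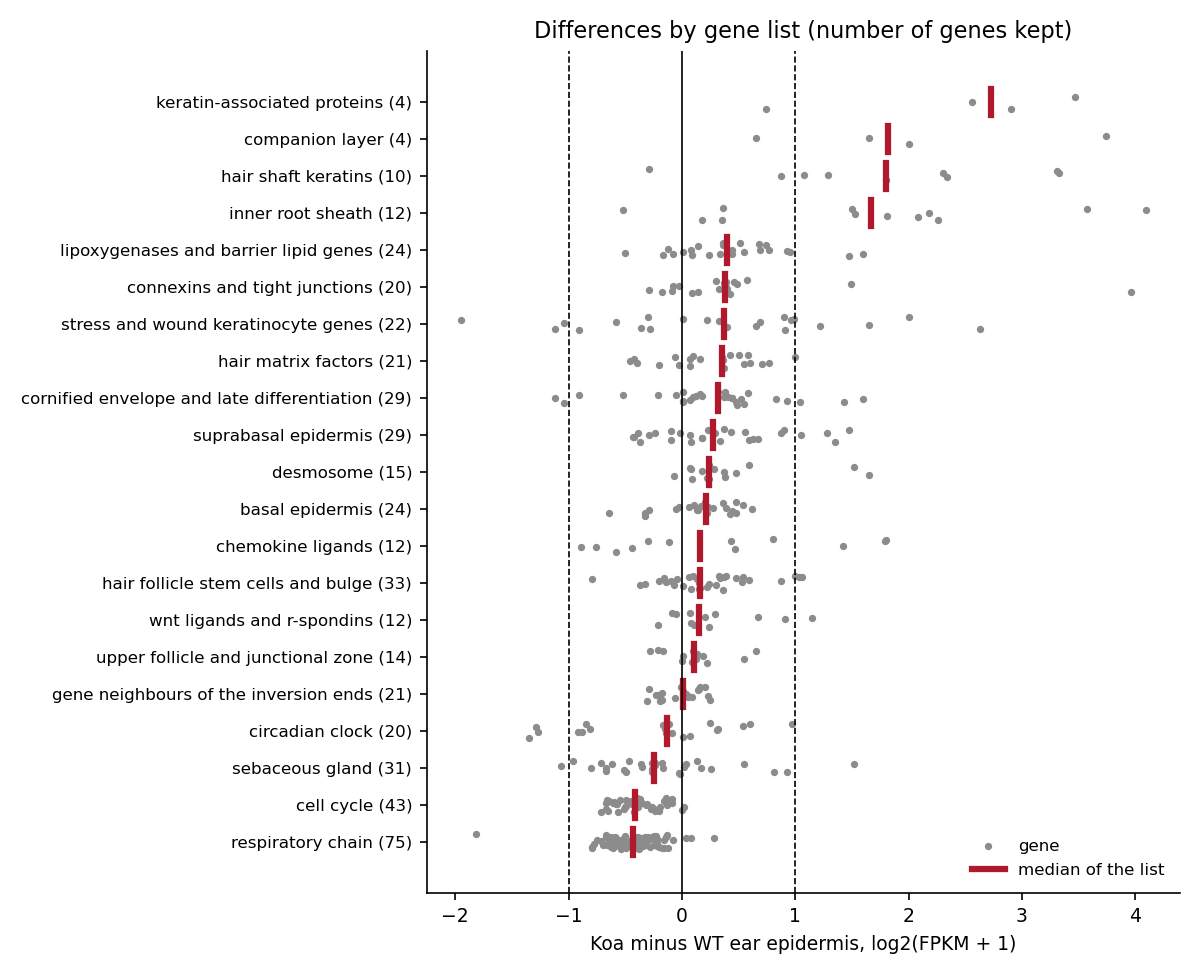
Differences between Koa and WT ear epidermis, log2(FPKM + 1), for the kept genes of 21 lists, each point a gene and each red bar the list's median, with the size rule of 1 as dashed lines. The 4 hair-layer lists have medians from 1.67 to 2.73, and the other lists shown have medians from -0.43 to 0.40.

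Next to the inversion itself, Hoxc8 was the Hoxc gene of the epidermis that passed the rule. Its epidermal level was 1.97 FPKM for Koa ear, 0.171 FPKM for WT ear and 39.8 FPKM for the back. Hoxc8 differed more in ear dermis (10.2 against 0.241 FPKM), by 3.17 where the epidermal difference was 1.34. Hoxc4 stood at 0.397 and 0.445 FPKM and Hoxc5 at 0.570 and 0.656 FPKM in ear epidermis, whereas in ear dermis the Koa library stood above WT for both (1.55 against 0.0618 FPKM for Hoxc4 and 1.56 against 0.0109 FPKM for Hoxc5). Hoxc6 (0.590 against 0.0178 FPKM) and Hoxc9 (0.279 FPKM against a listing at 0) stood under 1 FPKM in both ears, as did Hoxc10 (0.0330 FPKM against a listing at 0), Hoxc11 (listed at 0 against 0.0348 FPKM) and Hoxc12, listed at 0 in both. The Hoxb genes Hoxb2 (2.06 against 4.65 FPKM) and Hoxb3 (1.02 against 2.54 FPKM), on chromosome 11, lay on the other side of 0, at -0.89 and -0.81.

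The 470 kept genes of chromosome 15 had a median difference of -0.006. Of 21 kept genes beside the ends of the inversion, 0 passed the rule in either direction (median 0.01), with the widest at -0.31 and 0.25. Between Trps1 and Hoxc13 (chromosome 15, 50654757 to 102928814, GRCm38) lay 375 kept genes, of which 12 were higher and 1 lower, 3.47% past the rule against 1.59% and 0.506% of all genes. The type II keratin cluster lies in this stretch, and without keratins 2 were higher and 1 lower of 359, or 0.836%. Hair keratins were higher on other chromosomes too: of the 22 hair-layer genes, 7 lay on chromosome 15, 8 on chromosome 11, 3 on chromosome 16 and 3 elsewhere, and Krt85 was not placed.

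Gap junction genes held one of the widest differences outside the hair lists. Gjb2, connexin 26, which is low in resting trunk epidermis and present in follicles and in hyperplastic epidermis, measured 45 FPKM in Koa and 1.96 in WT, a ratio of 23 (19.7 to 26.9), with 11.1 FPKM on the back. Its neighbour Gjb6, connexin 30, stood at 3.74 and 0.692 FPKM. Gja1 (166 against 126 FPKM) and Gjb5 (31 against 32.9 FPKM), connexins of the epidermis, were within the rule. The list had 2 of 20 higher (10%, against 1.59% of all genes) and 0 lower, with a median of 0.38.

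Interfollicular differentiation genes mostly lay above 0. Of 29 suprabasal genes 20 did so, 4 were higher (13.8%, against 1.59% of all genes) and 0 lower. Their median of 0.27 compares with a 75th percentile of 0.19 over all genes. Krt77, a suprabasal keratin, measured 28.8 FPKM in Koa and 10.7 in WT ear but at 1034.2 FPKM on the back. Krt78 stood at 1.95 and 0.215 FPKM (12.7 on the back), and the cyclooxygenase Ptgs1 at 18 and 5.83 FPKM. Krt2, a keratin of ear and tail skin that is low on the trunk, stood at 2591.4 and 3174.0 FPKM, against 9.4 FPKM on the back. Among Skint genes, a keratinocyte family whose founding member is needed for dendritic epidermal T cells, 4 of 10 were higher: Skint10 (6 against 1.25 FPKM), Skint9 (9.83 against 2.86 FPKM), Skint8 (4.41 against 1.71 FPKM) and Skint6 (2.99 against 0.923 FPKM). This family was singled out after its values were seen, and its members are near-identical copies between which reads may be divided.

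Of 29 cornified envelope genes, 23 lay above 0, 3 were higher (10.3%) and 2 lower (median 0.32). Alox12e, an epidermal lipoxygenase, stood at 36.1 and 11.2 FPKM (189 on the back), Serpinb12 at 19.5 and 6.60 FPKM, and Evpl, envoplakin of the envelope, at 50.7 and 24.1 FPKM. Lower in Koa were Stfa3, a stefin (11.4 against 25.9 FPKM), and Cnfn, cornifelin (0.830 against 2.77 FPKM). Genes of the stress response had 4 higher (18.2%) and 3 lower of 22 (median 0.37). Over all genes 1.59% were higher and 0.506% lower. Besides Krt6a and Krt16, S100a9, a calgranulin (12.7 against 1.22 FPKM), and the interleukin Il1f9 (14.4 against 5.64 FPKM) were higher, and Slpi, a secreted protease inhibitor, was lower (4.03 against 18.4 FPKM). S100a9 is also a neutrophil gene, and in ear dermis it had 13.7 FPKM in Koa and 23.8 in WT. The other myeloid genes kept were S100a8 (6.30 against 2.90 FPKM), Ly6c2 (1.23 against 0.456 FPKM) and Cd68 (3.97 against 2.89 FPKM), and the summed level of the myeloid list was 28.1 FPKM in Koa and 10.6 FPKM in WT. The part of such cells in S100a9 was not tested.

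Chemokines made by skin cells included 3 higher of 12 (25%, against 1.59% of all genes) and 0 lower (median 0.16). Cxcl14, made steadily by keratinocytes, stood at 125 and 35.2 FPKM, with 542 FPKM on the back. Ccl27a, the keratinocyte chemokine that attracts skin-homing T cells, stood at 29.6 and 7.84 FPKM, with 469 FPKM on the back. Cxcl12, a stromal chemokine, stood at 16.3 and 5.47 FPKM. These were not higher in dermis by the rule, where Cxcl14 measured 183 FPKM in Koa and 178 in WT and Cxcl12 at 191 and 181 FPKM. Cxcl12 was also one of the genes at least 10 times higher in WT ear dermis than in either ear epidermis. The fibroblast sum of 189 against 145 FPKM stands beside the Cxcl12 difference, and its part was not tested. Members on the other side of 0 were Ccl2 (0.703 against 1.89 FPKM) and Ccl25 (1.13 against 2.95 FPKM), both within the rule.

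Single enzymes and transporters stood among the furthest higher genes. Slc15a2, a peptide transporter, measured 10.2 FPKM in Koa and 0.0195 in WT and was also higher in Koa dermis (7.49 against 0.274 FPKM). Among 196 kept solute carriers it and Slc7a8 were the 2 past the rule (median of the family -0.02). Aldh1a1, which makes retinoic acid (11.3 against 2.07 FPKM), Aldh1a7 beside it on chromosome 19 (8.24 against 0.853 FPKM) and Dhrs9, a retinol dehydrogenase (1.57 against 0.00947 FPKM, the latter about 2 fragments), were higher, while the rest of the retinoid list was within the rule (2 of 15 higher, median 0.05). Aldh1a1 was far more abundant in ear dermis (165 against 140 FPKM) and met the limit of 10 times used above for dermal genes. The part of dermal RNA in its epidermal difference was not tested. Cyp27a1, a sterol hydroxylase, stood at 5.54 and 0.176 FPKM. Cwc22, a splicing factor, stood at 165 and 17.5 FPKM and Baiap2l1, an adaptor of the actin cytoskeleton, at 79 and 12 FPKM. Both were higher in dermis as well, at 108 against 12.6 FPKM for Cwc22 and 11.5 against 3.84 FPKM for Baiap2l1.

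Proliferation and energy genes lay below 0 as groups without passing the rule. Of 43 cell cycle genes, 41 lay below 0 with a median of -0.41, and 0 passed the rule. Tk1, the thymidine kinase of S phase, stood at 21.6 and 35.9 FPKM, the replication licensing factor Cdt1 at 11 and 18 FPKM, and cyclin Ccne1 at 4.46 and 7.68 FPKM, whereas the kinetochore genes Cenpe (7.36 and 7.26 FPKM) and Cenpf (9.60 and 9.59 FPKM) were level. In ear dermis the median of the same genes was 0.12. Of 75 respiratory chain genes, 72 lay below 0 with a median of -0.43, and 1 passed the rule, Cox7b of complex IV (91.2 against 324 FPKM). Families examined after their values were seen lay below 0 too: cytosolic ribosomal proteins (82 of 90 below 0, median -0.38), mitochondrial ribosomal proteins (70 of 76, median -0.30) and proteasome subunits (36 of 39, median -0.26). Over all genes the median was -0.01.

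Most of these families have short transcripts, and the difference between the libraries moved with transcript length. Genes whose longest transcript was up to 1000 nt had a median difference of -0.26 (565 genes), those from 2000 to 4000 nt -0.02 (4857 genes) and those over 10000 nt 0.14 (253 genes). In dermis the same classes had medians of -0.02, -0.01 and 0.11. With the median of its length class subtracted from each gene, the respiratory chain had a median of -0.26 (70 of 75 below 0). The cell cycle genes, with longer transcripts, had -0.39 (43 of 43 below 0). The same subtraction left the hair shaft keratins at 1.91 and the inner root sheath at 1.72. RNA quality was not measured here, and its part in the length pattern was not tested.

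**Figure D4:**
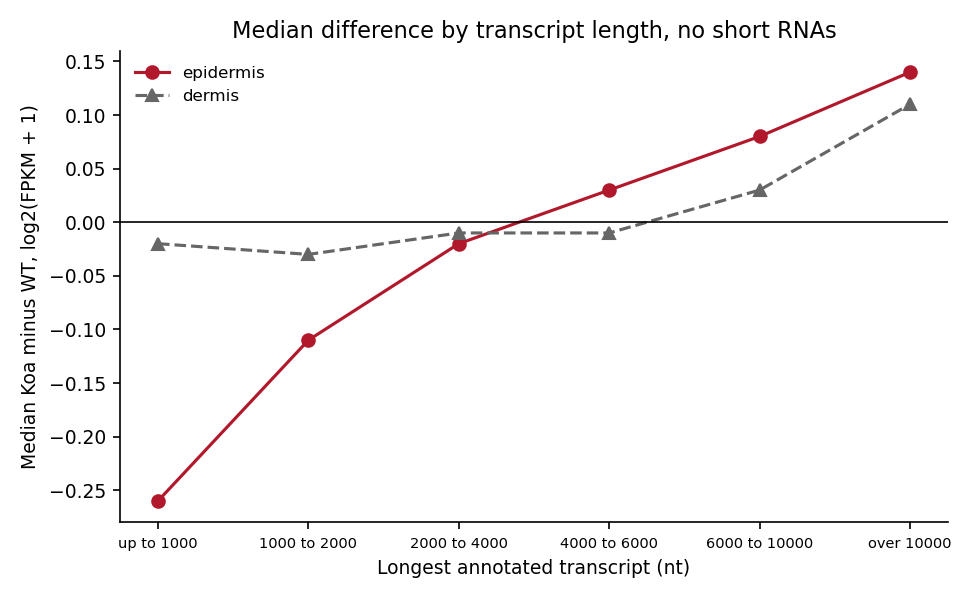
Median difference between Koa and WT (vertical, log2(FPKM + 1)) of genes in 6 classes of longest transcript (horizontal, nt), for epidermis (circles) and dermis (triangles), without short RNAs. The epidermal medians run from -0.26 in the shortest class to 0.14 in the longest, and the dermal ones from -0.03 to 0.11.

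Sebaceous gland genes had a median of -0.25, with 22 of 31 below 0, 1 higher and 1 lower. Apoc1, an apolipoprotein, stood at 436 and 917 FPKM, Mgst1, a glutathione transferase, at 245 and 477 FPKM, Pparg, the master factor of sebocytes and fat cells, at 21.5 and 34.7 FPKM, and Fa2h, a fatty acid hydroxylase, at 33 and 54.6 FPKM. Apoc1 was past the rule and the other 3 within it. With length-class medians subtracted 0 genes of the list were lower, Apoc1 included. Fads2, a fatty acid desaturase, was higher in Koa at 2.86 against 0.342 FPKM. In ear dermis the median of the list was 0.05.

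Some repressors of the circadian clock were lower in Koa in both ear layers. Bhlhe41, a repressor of clock transcription, measured 12.8 FPKM in Koa and 34.2 in WT epidermis, Cry1, a repressor of Clock and Arntl, at 9.84 and 25.5 FPKM, and Per2, its partner, at 1.65 and 5.42 FPKM. All 3 were lower by the rule, and all 3 were lower in dermis (9.28 against 22.2 FPKM for Bhlhe41, 11.1 against 24.3 FPKM for Cry1 and 3.20 against 8.26 FPKM for Per2). Per3 (4.57 against 9.53 FPKM) and the output factors Dbp (11.6 against 22.1 FPKM) and Tef (37.7 against 69 FPKM) lay just within the rule. In dermis Per3 (5.27 against 12.8 FPKM) and Dbp (10.6 against 23.7 FPKM) passed it and Tef (28 against 55.5 FPKM) did not. On the other side of 0 lay Npas2, an activator (6.61 against 2.88 FPKM), and Arntl (33.6 against 26.9 FPKM), while Nr1d1 (54.5 and 54 FPKM) and Clock (20.8 and 19.9 FPKM) were level. Of the 20 clock genes kept from the list, 3 were lower and 0 higher. Their median of -0.13 came to 0.02 when both libraries were scaled to equal totals. The labels give no time of day for the collection of the tissue, and its part was not tested. They also do not say whether both layers came from the same animals.

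**Figure D5:**
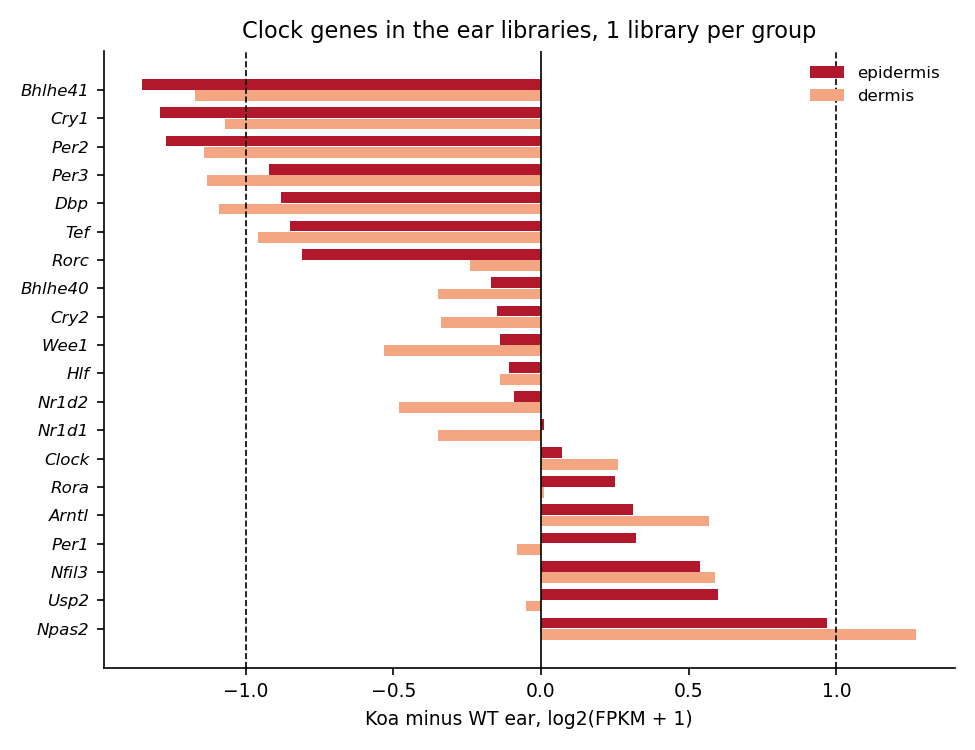
Koa minus WT ear difference, log2(FPKM + 1), of 20 clock genes in epidermis (dark bars) and dermis (light bars), 1 library per group, with the size rule of 1 as dashed lines. Bhlhe41, Cry1 and Per2 lie past -1 in both layers (-1.35 and -1.17, -1.29 and -1.07, -1.27 and -1.14).

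Class I histocompatibility genes, which present peptides on most cells, went both ways: 2 were higher (8.33%) and 3 lower of 24 (median -0.24). Of all genes 1.59% were higher and 0.506% lower. H2-D1 stood at 308 and 113 FPKM and H2-T10 at 6.59 and 1.02 FPKM. H2-T22 stood at 2.43 and 8.79 FPKM, H2-Q10 at 1.31 and 4.06 FPKM, and H2-T9 at 8.28e-05 and 8 FPKM. Each of these 5 lay on the same side of 0 in dermis, for example 494 against 167 FPKM for H2-D1 and 2 against 6.70 FPKM for H2-T22. The genes are near-identical copies between which reads may be divided, so single values are uncertain. Inherited differences between the animals other than the allele cannot be told apart from it here.

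Class I genes aside, the gene furthest lower in Koa among those with at least 5 FPKM was Gm10136, a pseudogene entry (2.28 against 108 FPKM), which, short RNAs left out, was also the gene furthest apart in either direction, at -5.06. Next came Hyi (4.50 against 26.8 FPKM), Slpi and Cox7b, both described above, and the RNA Snhg3 (72.9 against 247 FPKM). After these came Hsd11b1, which regenerates active glucocorticoid (1.41 against 6.78 FPKM), the lipopolysaccharide-binding protein Lbp (1.41 against 6.75 FPKM), the pseudogene entry Gm12166 (3.57 against 13.6 FPKM) and Mgst2 (20.3 against 55.9 FPKM). Gm129 followed at 3.55 against 11 FPKM (-1.40), and in ear dermis it stood at 2.1 against 7.79 FPKM (-1.50). Gm10136, Hyi and Snhg3 were lower in Koa dermis too (3.09 against 48.8 FPKM, 8.90 against 33 FPKM and 58.8 against 129 FPKM), while Hsd11b1 (29.6 against 44.8 FPKM) and Lbp (53.7 against 74.3 FPKM) were within the rule there. Short RNAs passed the rule far more often, with 71 of 213 higher (33.3%) and 43 lower (20.2%), and the 5 furthest in each direction were listed at 0 in the other library, such as Snord19 (7454.7 FPKM in Koa) and Snord42b (973 FPKM in WT).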

How the data were processed

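RNA from sorted ear epidermal cells was measured in 2 libraries, 1 per group. The deposited values are the authors' FPKM. TopHat2 (2.0.13), Cufflinks (2.2.1), GRCm38 and mm9 are named, per the submitters' processing notes, with no role for either build, and the annotation and strandedness are not given in the sources used here. For 2 columns with a spelling error, the sample was taken from its title. The tail column carries at most 2 decimals and was not used. Of 22552 symbols, 22312 were matched to reference annotations of GRCm38, the source of positions, transcript lengths and biotypes. RNAs of a short class or under 300 nt were treated as short RNAs.

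Genes with at least 1 FPKM in either library were kept, and differences were taken on log2(FPKM + 1), a scale that understates the change of low genes. With 1 library per group a size rule of 1 stood in for a test. Each of 58 gene lists was described by counts and medians. Members and lists were chosen with earlier results of these data known. Named genes follow a rule: every Hoxc gene, the 15 furthest apart each way with at least 5 FPKM, every kept gene of the growing hair lists, up to 6 of each other list, cell type markers, 5 short RNAs each way and genes at the edge of the size rule. Not all are printed. Genes in other places were named after their values were seen, among them the genes of opposite direction in dermis, genes far higher in dermis such as Bgn, Aldh1a7, the Skint family and list members given for comparison, such as Axin2, Krt15, Gja1 and Dsg3.

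Depth was recovered from steps in low values. The WT depth was set with a length offset of 204 nt, at which 135 of 710 genes with a single transcript fell on the most common step. The Koa depth was set relative to WT from ratios of low values, without use of length. Of these ratios, 1820 of 3267 (55.7%) matched ratios of small whole numbers, against a median of 1.35% at shifted steps. Because most genes are estimates without whole reads, no count test was run. The procedure was tested on simulated data. Fragments were computed from FPKM, depth and longest transcript. Ratios have exact conditional binomial intervals (Clopper-Pearson, 95%) on these rounded estimates, so the intervals are approximate. Alternatives were pseudocounts of 0.1 and 5, other filters, 2 other scalings, no short RNAs, and subtraction of length-class medians. Python 3.11.15, numpy 2.4.6, pandas 2.3.3, scipy 1.17.1 and matplotlib 3.10.9 were used.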

Additional observations from a re-analysis of the deposited data

Results flagged for a closer look

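Of the genes called in epidermis, 7 passed the size rule in the opposite direction in ear dermis. They were 5 of the 156 genes higher in Koa epidermis and kept in dermis, and 2 of the 51 lower ones kept there. Over all 13487 genes kept in dermis, 0.586% were lower in Koa and 1.34% higher. With 1 library per group and layer, the difference between the layers was not tested, and the labels do not say whether both layers came from the same animals. Chi3l1, a secreted chitinase-like protein, measured 14.4 FPKM in Koa and 6.42 in WT epidermis (1.06), and at 27 and 55.7 FPKM in dermis (-1.02). Gm7609 stood at 26 and 10.3 FPKM in epidermis (1.26), and at 11.5 and 24.5 FPKM in dermis (-1.03). Zfp457, a zinc finger gene, stood at 9.89 and 3.13 FPKM in epidermis (1.40), and at 3.84 and 9.52 FPKM in dermis (-1.12). Btg3 (3.92 against 0.869 FPKM, 1.40) and Kbtbd10 (4.76 against 1.64 FPKM, 1.12) were likewise higher in epidermis, with dermal differences of -1.50 and -1.09. The other two went the opposite way. Spon2, a secreted matrix protein, stood at 1.36 and 4.72 FPKM in epidermis (-1.28), and at 21 and 6.36 FPKM in dermis (1.58). Defb2, a beta-defensin, stood at 0.273 and 1.68 FPKM in epidermis (-1.07), about 1 and 7 fragments, and at 1.36 FPKM in Koa dermis against a listing at 0.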

How the results depend on the processing

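The main counts were 259 genes higher and 103 lower in Koa ear epidermis. They came to 477 and 203 at a pseudocount of 0.1, and to 112 and 58 at a pseudocount of 5. Without short RNAs 60 genes were lower (188 higher), and with length-class medians subtracted, a choice made with the data in view, 35 were lower (209 higher). Other filters and scalings kept both counts within 1.5 times: 182 higher and 84 lower at 5 FPKM or more, 253 and 104 with equal medians, and 327 and 77 with equal totals, which moved the median of all genes to 0.124. List medians changed sign for clock genes with equal totals (0.02, from -0.13) and for class II histocompatibility genes with length-class medians subtracted (0.02, from -0.10), and in both cases the cause was not tested. No paired analysis was possible because each group has 1 library and the labels carry no replicate numbers. For the same reason no library could be left out and no difference is shown to exceed variation between animals. Depth limits genes under about 1 FPKM, whose ratios rest on few fragments in WT.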

Other observations

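Other groups of epidermal genes held 0 or few genes past the size rule. Of 24 basal genes 0 passed it, while 18 lay above 0 (median 0.21). Of 24 genes of the hemidesmosome and basement membrane, the anchor of basal cells, 0 passed it and 19 lay above 0 (median 0.23), with Frem2 at 11.1 against 5.60 FPKM and Col7a1, the anchoring fibril collagen, at 41.6 against 27.3 FPKM. Notch pathway genes (12 kept, median 0.24), hedgehog pathway genes (11 kept, median 0.06) and the 30 genes of AP-1 and the early response (median 0.08) had 0 past the rule.

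Of 17 interferon-stimulated genes 1 was lower, Ifi27l2a (5.12 against 13.6 FPKM), while the list had a median of 0.39. Of 24 heat shock chaperones 1 was higher, the small heat shock protein Hspb1 (118 against 48.1 FPKM, and 1340.4 FPKM on the back), while the mitochondrial chaperone Hspe1 was within the rule at 165 against 233 FPKM. Of 7 melanocyte genes 0 passed the rule (median 0.16), with Dct at 1.74 against 1.12 FPKM. These are values of 1 library per group.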
